A study of Mus musculus with 6 samples.

Results

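The genes described here are 9 markers of the oligodendrocyte lineage, taken by name from the 53801 genes in each count table. The choice was made with earlier results of these data known. They are the transcription factor genes Olig1, Olig2, Nkx2-2 and Sox10, the precursor surface genes Pdgfra, Cspg4 and Gpr17, and the myelin genes Cnp and Mbp. RNA-seq was run on cultured mouse neural progenitors that had been derived from embryonic stem cells and then subcloned; such progenitors self-renew and can form neurons and glia. The cells were sampled after 48 h of auxin, after 24 h of auxin and untreated (0 h), with auxin at 500 uM and with subclones 31 and 30 in each of the 3 groups, so that 6 libraries were analysed (n = 2 per group). Every library, the untreated ones included, comes from cells of the strain BL/6J x CAST-EiJ that carry a degron on SPEN, a protein tag that is targeted for degradation once auxin, a plant hormone, is added. SPEN is a large RNA-binding corepressor. Cells without the degron were not analysed here, so an effect of auxin itself and an effect of SPEN loss cannot be told apart, and the protein was not measured. Each replicate is 1 subclone, so p-values rest on these 2 subclones only. Tests on treatment group alone measure the spread between them. With the clone also in the fit, they measure how far the changes of the 2 subclones differ.

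Oligodendrocytes are the myelin-forming cells of the central nervous system. They arise from neural progenitors through a proliferating precursor that expresses Olig2, Sox10, the growth factor receptor gene Pdgfra and the proteoglycan gene Cspg4, pass through a committed stage marked by Gpr17, and then switch on myelin genes such as Cnp and Mbp. Olig1 and Olig2 are also expressed by neural stem cells that are kept dividing in culture with EGF and FGF, the condition used here. In bulk libraries such as these, more cells of a type and more RNA per cell cannot be told apart.

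Total counts ran from 24603816 to 43008978 per library, and 3 counts, the floor used here, correspond to 0.0698 to 0.122 CPM (the counts-per-million scale). The neural progenitor marker genes Nes, Vim, Fabp7 and Sox2 were abundant in every library (Nes at 648 to 1894 CPM), while Sox1 had 0 to 2 counts. The neuron list had 7 of 8 genes tested. At 48 h against untreated cells, with the clone as a block, 1 of these fell (Syt1) and 0 rose. Over all genes tested 9.08% fell and 17.4% were called. By sign 5 of the 7 were higher and 2 lower, with a median log2 change of 0.09. The microglial markers were near 0, with Aif1 at 0 counts in all 6 libraries and a summed level of 0.521 to 1.37 CPM over 5 genes, and 0 of the 2 tested were called at 48 h (edgeR with the block, 0 at an unadjusted p under 0.05).

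The lineage factors covered a very wide range of levels. Olig1 and Olig2, neighbouring basic helix-loop-helix factor genes on chromosome 16 (Olig1 at 91269772 to 91271933, Olig2 at 91225550 to 91228677, mm10, with 41.1 kb between them), were among the most abundant transcripts of these cells. CPM divided by exon length in kb, the scale used here whenever genes are compared, put Olig1 at 1075 ± 121 CPM per kb (SD over the 6 libraries) and Olig2 at 257 ± 38.8 CPM per kb. Among all genes of a library Olig1 ranked 3 to 5 on that scale and Olig2 52 to 164. Cnp followed at 48.8 ± 41.5 CPM per kb, Cspg4 at 4.08 ± 3.40, Nkx2-2 at 1.91 ± 0.326, Gpr17 at 0.244 ± 0.312, Pdgfra at 0.171 ± 0.159, Mbp at 0.0566 ± 0.0585 and Sox10 at 0.0266 ± 0.0241. Over the 6 libraries Olig1, Olig2 and Cnp did not overlap with any other of the 9 genes on this scale. Cspg4 and Nkx2-2 overlapped with each other and lay above the remaining 4, which overlapped as neighbours in the order.

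Sox10, the factor gene that directly drives myelin genes and marks the whole lineage from the precursor on, was near the floor of 3 counts. It had 5 and 5 counts in clones 31 and 30 at 48 h, 2 and 1 at 24 h, and 1 and 1 untreated. Both 48 h libraries were above that floor and all 4 others were under it. The 10 counts at 48 h against 2 untreated give a ratio of 5.65 with an exact counting interval of 1.20 to 53.0 at 95% confidence. Sox10 did not pass the filter on low counts and was the only one of the 9 genes that was not tested, so 8 were tested.

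**Figure D1:**
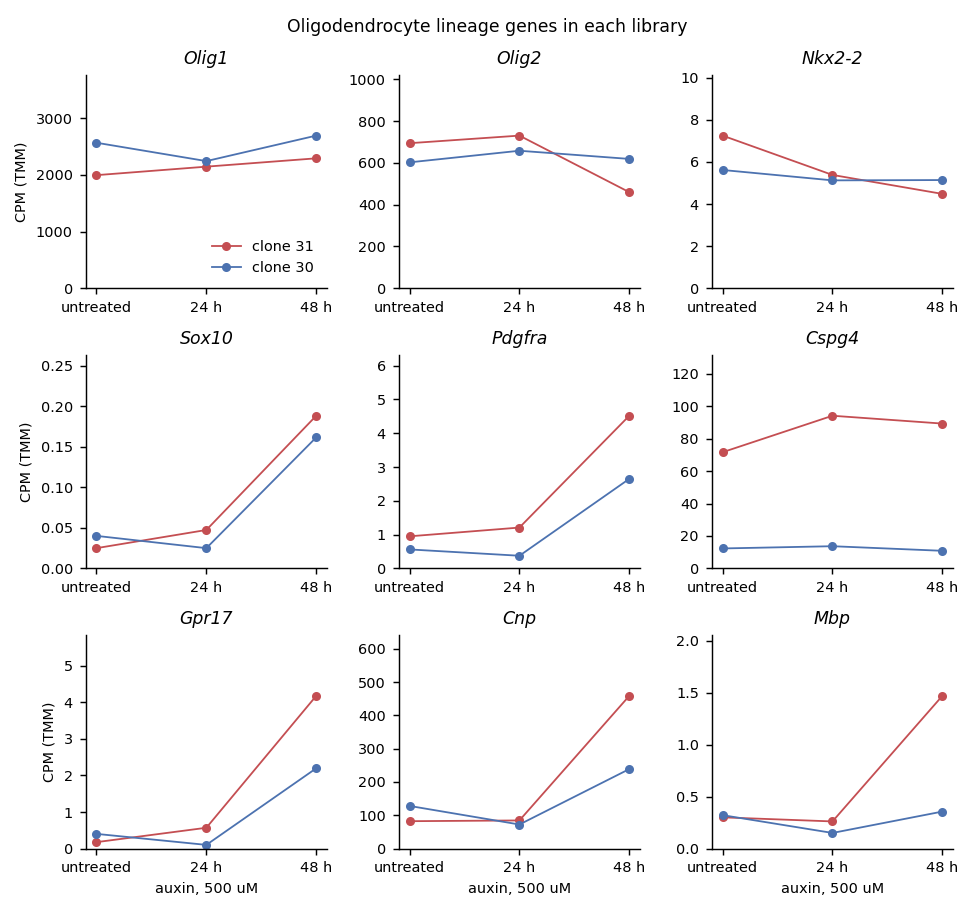
Expression of the 9 genes in each library, in CPM scaled by the trimmed mean of M-values (TMM), against hours of auxin at 500 uM; each line is 1 clone and each point 1 library. The 48 h points of Pdgfra and Gpr17 lie above all 4 others in both clones, while Cspg4 is split by clone (71.7 to 94.2 CPM in clone 31 and 10.9 to 13.7 CPM in clone 30).

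Olig1 stood at 2294 and 2695 CPM in clones 31 and 30 at 48 h, at 2147 and 2245 CPM at 24 h, and at 1997 and 2569 CPM untreated. Both 48 h libraries were above both 24 h libraries, and the untreated group overlapped with each of the others. With the clone as a block, which fits the change within each clone, Olig1 differed by 0.13 ± 0.13 on the log2 scale at 48 h against untreated cells (SE, edgeR adjusted p = 0.514). Olig2, the factor that specifies the lineage, stood at 460 and 619 CPM in clones 31 and 30 at 48 h, at 730 and 658 CPM at 24 h, and at 694 and 602 CPM untreated. The 48 h library of clone 31 was the lowest of the 6, and in clone 30 the values of all 3 times lay close together. The blocked log2 difference of Olig2 at 48 h was -0.27 ± 0.18 (edgeR adjusted p = 0.315), made of -0.59 within clone 31 and 0.04 within clone 30. Per kb, Olig1 exceeded Olig2 by 5.63 and 4.91 times at 48 h in clones 31 and 30, by 3.31 and 3.85 times at 24 h and by 3.24 and 4.81 times untreated, so the groups of this ratio did not overlap at 48 h, although clone 30 untreated came close.

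Nkx2-2, a homeodomain factor gene of the ventral neural tube and of maturing oligodendrocytes (chromosome 2, 147177546 to 147194243), was low and was not called. It had 4.48 and 5.14 CPM in clones 31 and 30 at 48 h, 5.38 and 5.12 CPM at 24 h, and 7.25 and 5.62 CPM untreated. Both untreated libraries were above all 4 auxin libraries, narrowly so in clone 30. Its blocked log2 difference was -0.42 ± 0.20 at 48 h (edgeR adjusted p = 0.182) and -0.29 ± 0.19 at 24 h (adjusted p = 0.879).

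Of the surface genes, Pdgfra and Gpr17 rose at 48 h in both clones, from levels near 1 CPM or below, and Cspg4 did not. Pdgfra encodes the receptor for platelet-derived growth factor A that keeps precursors dividing (chromosome 5, 75152292 to 75198215). It had 4.52 and 2.65 CPM in clones 31 and 30 at 48 h (120 and 82 counts), 1.21 and 0.375 CPM at 24 h (51 and 15 counts), and 0.95 and 0.562 CPM untreated (38 and 14 counts). Each 48 h library was above every other library. The log2 change against untreated cells was 2.27 ± 0.31 in the fit blocked by clone (adjusted p = 0.0238, edgeR) and 2.22 ± 0.66 on treatment group alone (adjusted p = 0.170), and the clones moved alike, by 2.18 within clone 31 and 2.13 within clone 30. The blocked log2 change of Pdgfra against 24 h was 2.25 ± 0.30 (adjusted p = 0.0162, edgeR), which group alone did not call (0.128).

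The promoter of Pdgfra is shown because the gene rose, with those of Cnp, which also rose, and Olig2, the abundant factor that did not, for comparison. Sequences were found for 5 of the 9 genes in the RefSeq table (build GRCm38.p6), on the plus strand for these 3. Each runs from 250 bases before to 50 bases after the start given in RefSeq. That start can differ from the gene coordinates printed here, and the window of Nkx2-2 (147186353 to 147186652) lies inside that gene. Capitals mark the E-box CANNTG, the core letters bound by basic helix-loop-helix factors such as OLIG2, searched on both strands (the motif reads as itself on the other strand).
Pdgfra, chr5:75152001-75152300: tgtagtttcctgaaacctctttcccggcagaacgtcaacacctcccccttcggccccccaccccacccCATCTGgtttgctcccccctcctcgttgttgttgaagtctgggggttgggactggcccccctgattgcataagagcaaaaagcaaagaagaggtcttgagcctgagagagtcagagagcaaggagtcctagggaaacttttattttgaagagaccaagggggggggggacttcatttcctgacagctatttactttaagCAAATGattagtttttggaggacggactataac
Cnp, chr11:100574689-100574988: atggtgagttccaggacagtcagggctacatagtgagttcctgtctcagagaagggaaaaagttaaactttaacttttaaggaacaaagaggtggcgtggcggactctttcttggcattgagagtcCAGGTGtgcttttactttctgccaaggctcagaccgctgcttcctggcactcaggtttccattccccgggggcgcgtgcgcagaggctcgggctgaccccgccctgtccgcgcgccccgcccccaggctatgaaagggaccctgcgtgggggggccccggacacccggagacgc
Olig2, chr16:91225300-91225599: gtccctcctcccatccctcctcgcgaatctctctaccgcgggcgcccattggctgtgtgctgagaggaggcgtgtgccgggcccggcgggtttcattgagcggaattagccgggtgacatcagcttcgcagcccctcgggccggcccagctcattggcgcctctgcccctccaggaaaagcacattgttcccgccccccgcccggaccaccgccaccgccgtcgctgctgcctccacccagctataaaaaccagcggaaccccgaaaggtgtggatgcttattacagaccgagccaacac
The window of Pdgfra holds 2 E-boxes, that of Cnp 1 and that of Olig2 0, while those of Nkx2-2 and Cspg4 hold 3 and 0. At least 1 E-box is found in 72.3% of the 32851 mouse promoter windows of this length and at least 2 in 39.6%. The letters TGGGAA, the core read by the Notch factor RBPJ, were found on neither strand of the 5 windows and occur in 25.6% of all windows.

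Gpr17, on chromosome 18, encodes a G protein-coupled receptor that is switched on in precursors as they commit to differentiate. It had 4.18 and 2.20 CPM in clones 31 and 30 at 48 h (111 and 68 counts), 0.569 and 0.100 CPM at 24 h (24 and 4 counts), and 0.175 and 0.401 CPM untreated (7 and 10 counts). It had the largest log2 change of the 8 genes in the blocked fit, 3.56 ± 0.65 against untreated cells (edgeR adjusted p = 0.0285; 0.149 on treatment group alone). Within clone 31 the log2 change was 4.18 and within clone 30 it was 2.30, and the 7 and 10 untreated counts limit the precision of both. Against 24 h it was 3.28 ± 0.59 in the blocked fit (edgeR adjusted p = 0.0187, and 0.110 by group alone). Exons of Gpr17 share 188 bases with Lims2 on the opposite strand, a gene with 53 counts over all libraries beside 224 for Gpr17. A part of Lims2 in the Gpr17 counts was not tested.

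Cspg4, which encodes the NG2 proteoglycan of precursors and also of pericytes (chromosome 9, 56865033 to 56899870), differed by clone and was not called by treatment. It had 89.3 and 10.9 CPM in clones 31 and 30 at 48 h, 94.2 and 13.7 CPM at 24 h, and 71.7 and 12.3 CPM untreated. Its blocked log2 difference at 48 h against untreated cells was 0.09 ± 0.14 (edgeR adjusted p = 0.661). Without the clone in the fit its standard error was 1.37 on the log2 scale.

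The myelin genes were uneven in level and in change. Cnp encodes a phosphodiesterase of myelin sheaths that is detected in the lineage before other myelin proteins (chromosome 11, 100574904 to 100591729). It had 459 and 239 CPM in clones 31 and 30 at 48 h, 84.4 and 72.2 CPM at 24 h, and 82.2 and 128 CPM untreated. Both 48 h libraries were above all others, and clone 31 was the higher of the clones at 48 h while clone 30 was the higher one untreated. Its log2 change against untreated cells was 1.68 ± 0.35 in the fit blocked by clone (adjusted p = 0.0339, edgeR) and 1.73 ± 0.37 on treatment group alone (adjusted p = 0.139), with 2.48 within clone 31 and 0.90 within clone 30. Against 24 h it was 2.13 ± 0.35 in the blocked fit (adjusted p = 0.0174, edgeR; 0.0860 by group alone), with 2.44 within clone 31 and 1.72 within clone 30. Exons of Cnp share 154 bases with Dnajc7 on the opposite strand, a gene with 38975 counts over all libraries beside 32505 for Cnp. Counting was set to use strand, but the kit named in the labels does not mark it in its standard form, so a part of Dnajc7 in the Cnp counts was not tested.

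Mbp, on chromosome 18, encodes myelin basic protein, a main structural protein of compact myelin, and stayed low. It had 39 and 11 counts in clones 31 and 30 at 48 h (1.47 and 0.355 CPM), 11 and 6 counts at 24 h (0.261 and 0.150 CPM), and 12 and 8 counts untreated (0.300 and 0.321 CPM). The 48 h library of clone 31 alone stood apart. The blocked log2 change was 1.51 ± 0.55 against untreated cells (edgeR adjusted p = 0.105), which was not called, and 2.04 ± 0.55 against 24 h (adjusted p = 0.0446; 0.171 on treatment group alone), which was. The change against untreated cells was 2.09 within clone 31 and 0.13 within clone 30. The counts take all transcripts of the gene together, including those that start upstream of the myelin form and are used outside oligodendrocytes.

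**Figure D2:**
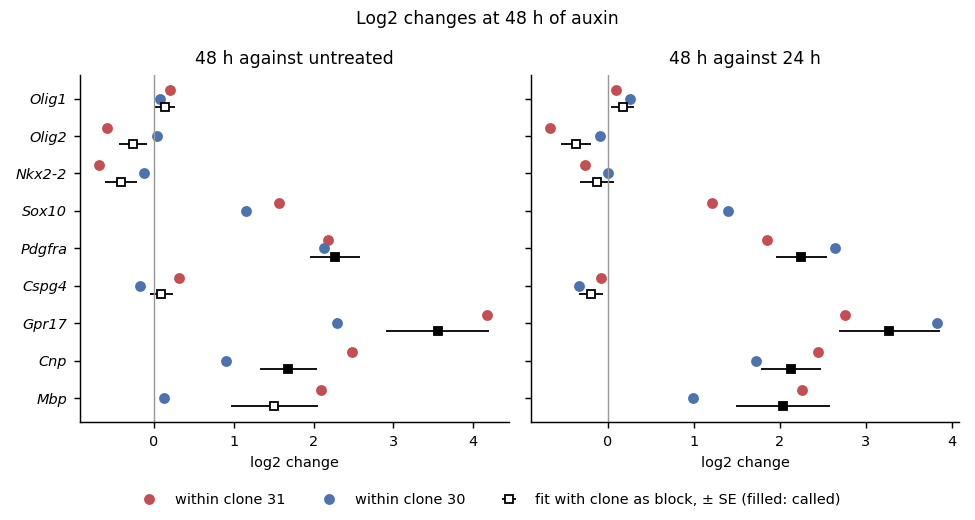
Log2 changes of the 9 genes at 48 h of auxin against untreated cells (left) and against 24 h (right): circles give the change within clone 31 and within clone 30 (1 library over another, prior count 2), squares the edgeR estimate with the clone as a block ± SE, filled where the adjusted p was 0.05 or less. Sox10 has no square because it was not tested, and the 3 filled squares on the left are Pdgfra, Gpr17 and Cnp.

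At 48 h against untreated cells, then, 3 of the 8 genes tested rose with the clone as a block and 0 fell, where 17.4% of the 16007 genes tested were called and 8.35% rose. Their median log2 change was 0.82, beside 0.02 over all genes tested. On treatment group alone, edgeR called 0 of the 8 genes and 0% of all genes (at an unadjusted p under 0.05, 3 of the 8 and 3311 of 16007), and limma voom likewise called 0 of the 8. DESeq2 on treatment group alone called Pdgfra, Gpr17 and Cnp too (adjusted p = 0.0314, 0.00694 and 0.000349), with 10.4% of all genes called. With the block, DESeq2 and limma voom called the same 3, with 21% and 17.8% of all genes called. When clone 31's untreated library was left out, the blocked edgeR fit called 0 of the 8 (adjusted p = 0.125 for Pdgfra, 0.140 for Gpr17 and 0.108 for Cnp) and 6 genes in all. Without the 48 h library of clone 30 it called 6 of the 8, Olig2 and Nkx2-2 as lower and Mbp as higher beside these 3, with 6615 genes in all. The 48 h arm is then the clone 31 library alone, assumed to vary like the other groups, so these calls rest on 1 library. Cnp was called in 2 of the 6 blocked fits that leave out 1 library, and Pdgfra and Gpr17 in 5 of the 6.

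At 48 h against 24 h of auxin, 4 of the 8 genes rose with the block, Pdgfra, Gpr17, Cnp and Mbp, and 0 fell, where 26.1% of all genes were called and 12.3% rose. This comparison and the one before share the 48 h libraries. Upper-quartile scaling gave the same 4 genes but moved the split of all genes called to 2549 higher and 1726 lower, beside 1961 and 2224 with TMM. On treatment group alone edgeR called 0 of the 8 and 0% of all genes (4 and 3997 unadjusted), and so did limma voom for the 8. DESeq2 called Pdgfra, Gpr17 and Cnp on treatment group alone (15.8% of all genes) and with the block (26.7%), gave no adjusted p for Mbp, and limma voom with the block called the same 3 (27.4%). The adjusted p of Mbp was 0.0612 there. Leaving out the 24 h library of clone 31 or that of clone 30, the blocked edgeR fit called 0 of the 8, and 3 or 0 genes in all. Mbp was called in 3 of the 6 blocked fits that leave out 1 library.

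At 24 h against untreated cells none of the 8 genes was called by edgeR, on treatment group alone (0% of all genes, with 0 of the 8 and 240 of all genes at an unadjusted p under 0.05) or with the block (0%, with 0 and 988 unadjusted). DESeq2 called none of them either, with 0.0375% of all genes on treatment group alone and 0.256% with the block, nor did limma voom with the block (0%). The blocked log2 differences ran from -0.53 for Mbp to 0.28 for Cspg4. Gpr17 went opposite ways in the clones, 1.43 within clone 31 and -1.54 within clone 30, at 24 and 4 counts against 7 and 10 untreated. Cnp was lower in clone 30 at 24 h (-0.82) and nearly level in clone 31 (0.04).

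Between the clones, over all 3 times, Cspg4 was the only one of the 8 genes called, where 16.2% of 15492 genes tested were called and 7.58% were higher in clone 31. It was higher in clone 31, at 85.0 ± 11.8 CPM against 12.3 ± 1.42 CPM in clone 30 (SD, n = 3 each), a log2 difference of 2.78 ± 0.12 (edgeR adjusted p = 0.000698). The clones did not overlap. The 3 libraries of a clone are 1 subclone at 3 auxin times. An SD here is the spread of 1 subclone over the times. The p-values between clones measure how steady the difference was over the times, with 1 subclone on each side. Pdgfra differed by 1.02 ± 0.26 (edgeR adjusted p = 0.0516) and was higher in clone 31 at each of the 3 times. It was called when either 48 h library was left out (lowest adjusted p 0.0206) and with no filter on low counts, and in none of the other 4 fits that leave out 1 library. The other 6 differed by -0.22 (Olig1) to 1.12 (Mbp) and were not called. Scaling by total counts called Cspg4 too. It moved the split of all genes called to 910 higher and 1610 lower in clone 31, beside 1174 and 1329 with TMM.

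Cspg4 and Pdgfra are also expressed by pericytes and other mesenchymal cells, and genes of that list differed between the clones as well. Of 12 listed genes 8 were tested, 5 were called higher in clone 31 and 1 was called lower (Acta2). By sign 6 were higher and 2 lower. The other 2 tested were not called. Twist1 averaged 11.1 ± 3.19 CPM in clone 31 and 9.44 ± 3.24 CPM in clone 30 (SD), and Col1a1 1.85 ± 0.748 and 2.06 ± 0.939 CPM. Over all genes tested 7.58% were called higher and 8.58% called lower in clone 31. The collagen gene Col3a1 was higher by 4.81 ± 0.13, the matrix genes Dcn and Lum by 5.95 ± 0.18 and 4.97 ± 0.15, Anpep by 2.83 ± 0.23 and Pdgfrb, the receptor gene of pericytes, by 2.05 ± 0.28 (edgeR adjusted p = 0.00029 to 0.00949). Prrx1, a lineage regulator, and Vcan, a precursor proteoglycan gene, were higher too, by 1.89 ± 0.15 and 1.46 ± 0.12. Of the 10 astrocyte genes 0 were called higher and 5 called lower in clone 31, beside the 8.58% of all genes that were called lower. By sign 2 of the 10 were higher and 8 lower. The summed level of the pericyte and mesenchymal list was 92.3 to 114 CPM in clone 31 and 13.6 to 18.2 CPM in clone 30. The defining pericyte genes Rgs5, Kcnj8 and Abcc9 had 0 to 8 counts per library, and Pdgfrb was at 0.640 to 1.28 CPM in clone 31. The list's part in the clone difference of Cspg4 and Pdgfra was not tested. In the 48 h comparison with untreated cells 1 of the 8 rose with the block, Col1a1 (0.86 ± 0.21, edgeR adjusted p = 0.0460), and 0 fell, with a median of -0.19. That share is near that of all genes, of which 8.35% rose and 17.4% were called.

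**Figure D3:**
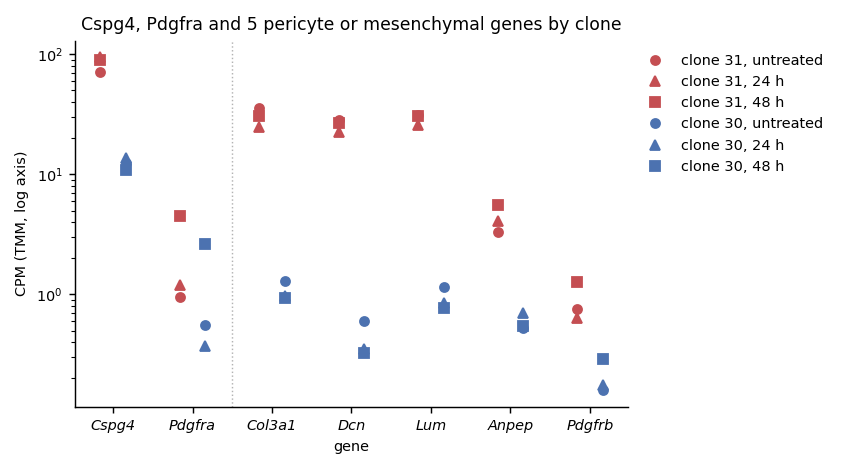
CPM (TMM, log axis) of Cspg4, Pdgfra and the 5 pericyte or mesenchymal genes that were higher in clone 31; each symbol is 1 library, red for clone 31 and blue for clone 30, with shapes for untreated, 24 h and 48 h. The 5 genes were picked as those called higher in clone 31, so their separation follows from that choice. The 3 libraries of clone 31 lie above the 3 of clone 30 for every gene shown except Pdgfra. For Pdgfra the 48 h library of clone 30 (2.65 CPM) is above the untreated and 24 h libraries of clone 31.

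Further genes of the lineage were read from the same blocked fit at 48 h against untreated cells. Of 12 other regulators 11 were tested, 3 rose and 0 fell, with a median of 0.48, where 8.35% of all genes tested rose and 17.4% were called. Myt1, a zinc finger factor gene of precursors, rose by 1.27 ± 0.21 (edgeR adjusted p = 0.0258) and Zeb2 by 0.48 ± 0.09 (0.0305). The third was Zfp488, a cofactor gene of OLIG2 that was named after its values were seen, at 1.09 and 1.10 CPM in clones 31 and 30 at 48 h and 0.300 and 0.281 CPM untreated (1.95 ± 0.49, adjusted p = 0.0480). Nkx6-2 had 7.53 and 5.82 CPM in clones 31 and 30 at 48 h and 0.150 and 3.01 CPM untreated and was not called (2.54 ± 0.89, adjusted p = 0.0998), nor was Prrx1 (0.54 ± 0.18, 0.0938).

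The 7 genes that hold back differentiation had 4 that rose and 0 that fell (median 0.65), beside the 8.35% of all genes that rose. Id4, an inhibitor of basic helix-loop-helix factors, rose by 2.77 ± 0.45, Hes5, a Notch-driven repressor gene, by 3.57 ± 0.81, and Sox6 and Sox5, factor genes that keep precursors immature, by 0.65 ± 0.09 and 0.48 ± 0.12 (edgeR adjusted p = 0.0240 to 0.0431). On treatment group alone edgeR called no gene of any of the 12 lists in this comparison, and gave Id4 2.22 ± 1.75 (adjusted p = 0.522). Over the 3 times Id4 averaged 3.38 ± 4.99 CPM in clone 31 and 23.2 ± 23.7 CPM in clone 30 (SD, n = 3 each).

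Both tested ligand genes of the receptor went the other way from Pdgfra. With the block 9.08% of all genes tested fell at 48 h against untreated cells and 17.4% were called. Pdgfa, the main ligand gene of precursors, had 9.15 and 14.0 CPM in clones 31 and 30 at 48 h, 25.5 and 34.9 CPM at 24 h, and 27.0 and 26.2 CPM untreated. Both 48 h libraries were below all others, and the log2 change against untreated cells was -1.23 ± 0.18 (adjusted p = 0.0241, edgeR; 0.139 by group alone). Pdgfc fell by 0.51 ± 0.12 (adjusted p = 0.0401; 0.194 on treatment group alone). Pdgfb had 2 to 14 counts and was not tested.

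Of 9 other precursor genes 7 were tested and 1 rose, Ptprz1, a receptor phosphatase gene shared with neural stem cells (0.60 ± 0.12, edgeR adjusted p = 0.0330), a share near that of all genes (8.35% rose and 17.4% were called). Vcan, Lhfpl3 and Cacng4 differed by 0.36, 0.17 and 0.04 and were not called, and Neu4 had 1 count in all libraries together. Of 8 genes of committed precursors 7 were tested and 0 were called in either direction (edgeR, 1 at an unadjusted p under 0.05, Ugt8a, which was lower; DESeq2 and limma voom with the block also called 0). Bcas1, Itpr2, Tns3 and Fyn, at 44.9 CPM or more in every library, differed by -0.04 to 0.08.

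Among 15 other myelin genes 10 were tested, 3 rose and 0 fell (median 0.58), where 8.35% of all genes rose. Car2, a carbonic anhydrase gene, was among them and rose by 0.63 ± 0.11 (edgeR adjusted p = 0.0265). Gal3st1, which encodes the sulfotransferase that makes sulfatide and was named after its values were seen, had 20 and 46 counts in clones 31 and 30 at 48 h and 3 and 5 untreated (3.03 ± 0.45, adjusted p = 0.0241). Ermn differed by -0.16 and was not called. The genes of mature myelin Mag and Mog had 0 to 2 counts per library and Gjb1 had 0 in all 6.

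**Figure D4:**
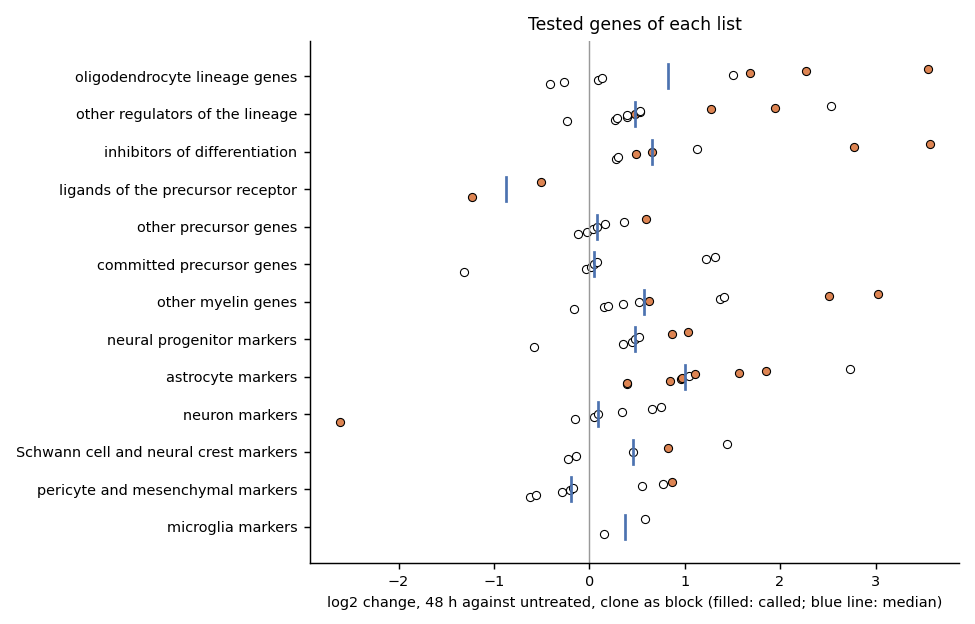
Log2 change at 48 h against untreated cells with the clone as a block for each tested gene of the oligodendrocyte lineage genes (top row), of the other lineage lists and of the marker lists of other cell types; filled circles had an adjusted p of 0.05 or less and the blue line is the median of a list. The 2 ligand genes lie below 0, and all 10 astrocyte genes lie above it.

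Markers of other cell types moved in the same comparison. Of 10 astrocyte genes, all tested, 7 rose and 0 fell (median 1.01), where 8.35% of all genes rose. Slc4a4 rose by 1.11 ± 0.17, Fgfr3 by 1.56 ± 0.26, S100b by 0.96 ± 0.18 and Aldoc by 0.97 ± 0.21 (edgeR adjusted p = 0.0246 to 0.0361). Their summed level was 2869 to 3166 CPM at 48 h, 1769 to 1995 CPM at 24 h and 1506 to 2222 CPM untreated. Of 8 neural progenitor genes 7 were tested, and Egfr and Sox2 rose (0.87 ± 0.12 and 1.03 ± 0.14). Nes had the opposite sign, at -0.58 ± 0.20 (edgeR adjusted p = 0.0962). Against 24 h 4 of these 7 genes rose and 1 fell, with a median of 0.53, where 12.3% of all genes rose and 13.9% fell. The gene that fell was Nes (-0.95 ± 0.20, edgeR adjusted p = 0.0247). The list of Schwann cells, the myelinating cells of peripheral nerves, and neural crest had 5 of 9 genes tested, of which Cdh19 rose by 0.82 ± 0.20 (adjusted p = 0.0451) and 0 fell. Its summed level was 13.5 to 20.5 CPM at 48 h and 14.6 to 17.0 CPM untreated, with Foxd3 at 0 in all libraries. The part of any of these lists in the changes of Pdgfra, Gpr17 and Cnp was not tested.

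Across the 6 libraries Gpr17 and Cnp (Pearson r = 0.94 of log2 CPM), Pdgfra and Gpr17 (0.94) and Pdgfra and Cnp (0.87) followed each other, and Olig2 ran against Cnp (-0.90). Olig1 and Olig2, although neighbours in the genome, gave -0.34. The libraries share clones and times, so these values are descriptions. The genes most like each member by the same measure, among 11092 or 11093 others, were Med31, Myd88 and Tmem134 for Pdgfra (r = 0.997 to 0.998), Cyhr1, Oscp1 and Pigv for Gpr17 (0.983 to 0.992) and Plekhf1, Pet100 and Ackr3 for Cnp (all above 0.998). For Cspg4 they were Vash2, Acly and Fdft1 (above 0.998), for Olig1 Myo7a, Ppp6r1 and Zfp882 (0.965 to 0.974), for Olig2 Slc35b1, Fastkd3 and Akap8 (0.993 to 0.997) and for Nkx2-2 Ddx42, Rbm18 and Cacnb2 (0.961 to 0.971). With 6 libraries such values are common: 371 genes exceeded 0.95 for Cnp, 213 for Cspg4 and 4 for Nkx2-2.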

How the data were processed

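Libraries were made from RNA with a RIN score above 9 with the TruSeq RNA kit v2 and sequenced with 100-base paired reads (labels' protocols). What the authors deposited is 1 raw count per gene and library, made with featureCounts 1.6.1 over exons with strand setting 2 on Ensembl release 92 (GRCm38, mm10), per the file headers. Input alignments came from a STAR folder, with duplicate reads removed going by their names in the headers; how that bears on short, abundant genes such as Olig1 was not tested. R 3.4.2 and DESeq2 are listed too, per the submitters' processing notes. Exon length in bp is deposited beside each count, per the file headers, and symbols were matched to 53620 of 53801 Ensembl identifiers. Genes antisense to Pdgfra and Nkx2-2 exons (Gm42802, Gm42803 and Nkx2-2os) had 1, 1 and 6 counts over all libraries. The strand setting and the kit, which in its standard form does not mark strand, are at odds; which holds is not given in the sources used here.

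The tests, 2-sided, were edgeR's robust quasi-likelihood F tests (version 4.0.16, R 4.3.3) with TMM and filterByExpr on all 6 libraries, over 16007 genes (15492 filtered by clone), and called at a Benjamini-Hochberg adjusted p of 0.05. Treatment group was the only term, and the clone was added as a block in a second fit. The clone number in the titles pairs the libraries, which come from the same subclone, and deviations of same-clone libraries from the group means correlated at 0.80 (24 h and untreated), 0.58 (48 h and untreated) and 0.71 (48 h and 24 h). The clone comparison had both terms. An SE is the log2 value over the root of its F statistic. Changes within a clone have 1 library on each side, use a prior count of 2 and have no test; a clone by time term leaves no residual degrees of freedom. Floors of 3 counts and intervals cover counting error only. The genes and the 12 lists were chosen with earlier results of these data known. Named from each list were up to 4 genes with the smallest blocked p at 48 h against untreated cells among those averaging at least 1 CPM; likeness used tested genes averaging at least 5 CPM. Some genes that this rule names are not reported here. DESeq2 1.42.0, limma 3.58.1 voom, other scalings and filters, 4 libraries alone and leaving out each library were tried; a group left with 1 library is assumed to vary like the others.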

Additional observations from a re-analysis of the deposited data

Results flagged for a closer look

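Within the clones, 3 genes changed in opposite directions with counting intervals that left out a ratio of 1. At 24 h against untreated cells Gpr17 changed by 1.43 on the log2 scale within clone 31 and by -1.54 within clone 30, from 24 and 4 counts against 7 and 10. In the same comparison Olig1 changed by 0.10 within clone 31 and by -0.19 within clone 30. Olig2 at 48 h against untreated cells changed by -0.59 within clone 31 and by 0.0387 within clone 30. With 1 library per clone and time, the difference between the clones was not tested in any of these.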

How the results depend on the processing

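With the clone as a replicate block, 3 of the 8 genes tested were called at 48 h against untreated cells and 4 at 48 h against 24 h, beside 0 and 0 on treatment group alone, and the block changed no call at 24 h. DESeq2 alone called 3 and 3, DESeq2 with the block 3 and 3, and limma voom with the block 3 and 3. The 4 libraries of the groups compared, with the block, gave 0 and 4, where 3 of 15357 and 4156 of 15707 genes tested were called. Added after seeing the data, the block with DESeq2 size factors, upper-quartile scaling or total counts gave 3 and 4. Also added then, the block with no filter beyond 1 count gave 2 and 3, without Cnp (edgeR adjusted p = 0.223 and 0.133). In these unfiltered fits 3235 and 4387 of 26823 genes were called. Leaving out 1 library at a time, the counts ran from 0 to 6 (48 h against untreated), 0 to 5 (48 h against 24 h) and 1 to 2 (clone 31 against clone 30); the clone comparison also gave 2 with no filter. Between clones, Cspg4 was called under every alternative run. The cause of these shifts was not tested.

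Values that changed sign were those of genes not called with all 6 libraries in the edgeR fit with or without the block; of these, Olig2 was called lower at 48 h against untreated cells in 1 blocked fit without a library and Cspg4 lower at 48 h against 24 h in another (adjusted p = 0.0456). At 24 h against untreated cells Pdgfra was -0.15 with limma voom, -0.0233 with DESeq2 and the block and -0.0148 with upper-quartile scaling and the block, and Gpr17 was -0.0569 with limma voom. At 48 h against untreated Cspg4 was -0.14 with limma voom, and between clones Olig2 was 0.000657 with the clone alone. Leaving out 1 library, over fits with and without the block, values at 24 h against untreated cells ran from -0.22 to 0.14 (Olig1), -0.0575 to 0.28 (Olig2), -1.02 to 0.66 (Pdgfra), -1.62 to 2.14 (Cspg4), -1.44 to 1.39 (Gpr17), -0.996 to 0.24 (Cnp) and -1.60 to 0.10 (Mbp). For 48 h against untreated cells they ran from -0.0451 to 0.31 (Olig1), -0.57 to 0.0032 (Olig2) and -1.97 to 2.02 (Cspg4), and at 48 h against 24 h from -0.31 to 0.0642 (Nkx2-2) and -2.31 to 1.87 (Cspg4). Between clones they ran from -0.14 to 0.16 (Olig2), -0.0573 to 0.20 (Nkx2-2) and -0.22 to 0.59 (Cnp). With the block alone, Cspg4 ran from 0.09 to 0.46 at 24 h against untreated cells, -0.12 to 0.28 at 48 h against untreated cells and -0.41 to -0.01 at 48 h against 24 h. Low counts limit Sox10, Mbp, Gpr17 and Pdgfra.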
